A study of Mus musculus with 9 samples.

Results

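Microglia are the resident macrophages of the retina. They survey the plexiform layers with motile processes, clear debris and dying photoreceptors, and in degenerating retinas lose their resting gene program as they take up material from other cells. Cx3cr1 (the fractalkine receptor), P2ry12 (an ADP receptor), Tmem119 and the complement genes C1qa and C1qb are widely used to recognise them. The microglia described here were selected by these same genes: a cell had at least 3 of the 5 markers with at least 1 UMI (a counted RNA molecule) and a marker sum of at least 3 per 10000 UMIs. This rule took 80 of 31089 retinal cells.

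The cells came from pairs of retinas of 9 mice, taken 6 months after treatment. All mice, controls included, carried the RPE65-ERT2-Cre.miR-211fl.miR-204fl alleles, in which a tamoxifen-inducible Cre is driven from the Rpe65 locus of the retinal pigment epithelium (RPE). The 4 control mice received the corn oil vehicle, and the 5 dKO (double knockout) mice received tamoxifen at 75 mg/kg for 5 days from postnatal day 28. By this design the deletion was made in the RPE and not in microglia, and effects of tamoxifen itself cannot be told apart from those of the deletion. Mature miRNAs were not measured in these libraries, so the deletion could not be checked in the microglia data. The deleted miRNAs share their seed, shown in capitals (bases 2 to 8) in the RefSeq mature sequences, and differ at 1 position, base 17.
mmu-miR-204-5p: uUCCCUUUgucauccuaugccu
mmu-miR-211-5p: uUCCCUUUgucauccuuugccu

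Libraries of 3 mice stood apart: control mouse 4 and dKO mice 5 and 7 held Y-linked RNA, 64.6 to 79.4% of their cells were rods against 20.9 to 31.5% in the other 6 mice, and their median depth was 4775 to 5412.5 UMIs per cell against 8118 to 10340. The labels give dKO mice 6 and 7 the same animal number, but only 1 of these libraries held Y-linked RNA. No barcode and no well was shared between mice, and the microglia were spread over all 8 sublibraries, with 5 to 16 in each.

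Of the 80 cells, 19 had 3 of the markers, 21 had 4 and 40 had all 5. These counts and the marker levels chose the cells, so they are a description. The 2 cells just inside the limit had marker sums of 3.24 and 4.00 per 10000 UMIs, and the 2 cells with at least 3 markers just outside it had 2.13 and 0.71. A further 30 cells reached the sum with only 2 markers. The microglia held a median of 7464 UMIs (2697 to 72050) and 2938 genes per cell, so they were shallower than Müller glia (15396 UMIs) and deeper than rods (4903 UMIs). Cx3cr1 was detected in 79 cells, C1qa and C1qb in 71 each, P2ry12 in 70 and Tmem119 in 50. After each cell was thinned to 2000 UMIs, Cx3cr1 was found in 77.5% of microglia and in 0.65% of rods, which should lack it; P2ry12 was found in 58.8% and 0.16%. Before thinning these shares were 98.8% and 2.03% for Cx3cr1, and 87.5% and 0.44% for P2ry12.

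Genes of resting microglia that the rule did not use were present as well. All 20 genes of a homeostatic list were detected, 17 of them in at least 40 cells. The receptor gene Csf1r, whose signal microglia need to survive, was found in 79 cells. It stood at 1155 counts per 1000000 UMIs (CPM) in the pooled microglia and at 7.16 CPM in all other cells. Siglech, a sialic acid lectin, was found in 61 cells and stood at 487 against 0.110 CPM. Sall1, a transcription factor that marks microglia among macrophages, was found in 49 cells and stood at 203 against 0.36 CPM. The broader myeloid factors Runx1 and Spi1 (PU.1) were found in 80 and 54 cells.

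Among the 5405 genes with at least 30 UMIs in microglia, 310 (5.74%) were at least 8-fold higher in microglia than in the other cells of the same mouse, by the median over mice on the scale log2(CPM + 10). This contrast is the one the rule used, so it carries no test. Outside the rule, the genes with the highest ratio were Inpp5d, Dock2, Ikzf1, Ctss, Csf1r, Cd83, Lyn, Ptprc, Apbb1ip and Ly86, followed by Slco2b1, Dock8, Plek, Mpeg1, Fyb, Itgam, Hpgds, Laptm5, Tbxas1, Vsir, AU020206, Runx1, Lcp2, Siglech and Blnk. Many belong to immune signalling: Inpp5d encodes the phosphatase SHIP1, Dock2 a Rac activator, Lyn a Src-family kinase and Ptprc the leukocyte antigen CD45. Inpp5d had a median log2 ratio of 6.80 (5.54 to 7.48 over mice) and was found in all 80 cells.

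PU.1 binds purine-rich sequences with a GGAA core, and its letters were searched in the promoters of these leading genes because PU.1 is the defining factor of the macrophage lineage. The motif GAGGAAGT, read on both strands, lay in the 300-base promoter (250 bases before to 50 after a start) of 5 of the 22 leading genes found in RefSeq (22.7%) and of 3.69% of all 27025 genes there. The shorter GAGGAA, which it contains, lay in 16 of the 22 (72.7%) against 31.3% of all genes. The 5 genes are shown with the 60 bases around the match, as the sequence reads along the gene, with the match or its reverse complement in capitals. Coordinates are those of GRCm38.p6, whereas the counts were made on GRCm39. A match is a description of these letters, not a measured binding site.
Inpp5d, chr1:87620266-87620325 (+): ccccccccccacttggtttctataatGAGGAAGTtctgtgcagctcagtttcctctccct
Ctss, chr3:95526758-95526817 (+): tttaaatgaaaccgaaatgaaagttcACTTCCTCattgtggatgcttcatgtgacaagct
Apbb1ip, chr2:22774306-22774365 (+): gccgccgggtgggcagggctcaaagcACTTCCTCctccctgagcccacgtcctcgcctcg
Slco2b1, chr7:99711301-99711360 (-): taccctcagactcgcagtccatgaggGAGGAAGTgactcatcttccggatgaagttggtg
Hpgds, chr6:65144746-65144805 (-): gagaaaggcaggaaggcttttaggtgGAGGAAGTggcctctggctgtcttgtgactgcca

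The microglia expressed the working parts of a resident macrophage. The lysosomal proteases Ctsb and Ctsd were found in 78 and 71 cells, at 861 and 1008 CPM, and the phagocytic receptor Mertk in 77 cells. The complement gene C1qc, which was not in the rule, was found in 68 cells at 260 CPM against 0.215 CPM in other cells, whereas C3 was found in 7. Among inflammatory genes, Ccl3 and Il1a were each found in 46 cells, Ccl4 in 41, Tnf in 20 and Il1b in 12. Il6 had 2 UMIs and Il10, an anti-inflammatory cytokine, had 0. Interferon response genes were sparse, and none of the 12 was found in 40 cells or more.

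The selected cells held few RNAs of other blood cells, which the need for microglial markers largely sets, so this says nothing of such cells in the retina. Of 10 monocyte and neutrophil markers, 8 were at 0 UMIs, Ly6c2 among them, and the summed level was 0 to 23.3 CPM in control mice and 0 to 78.1 CPM in dKO mice. Of 10 lymphocyte markers, 9 were at 0 and Cd4 had 4 UMIs. Mki67, a marker of dividing cells, was found in 2 cells, both of control mouse 3, and 4 of 10 proliferation genes were at 0.

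**Figure D1:**
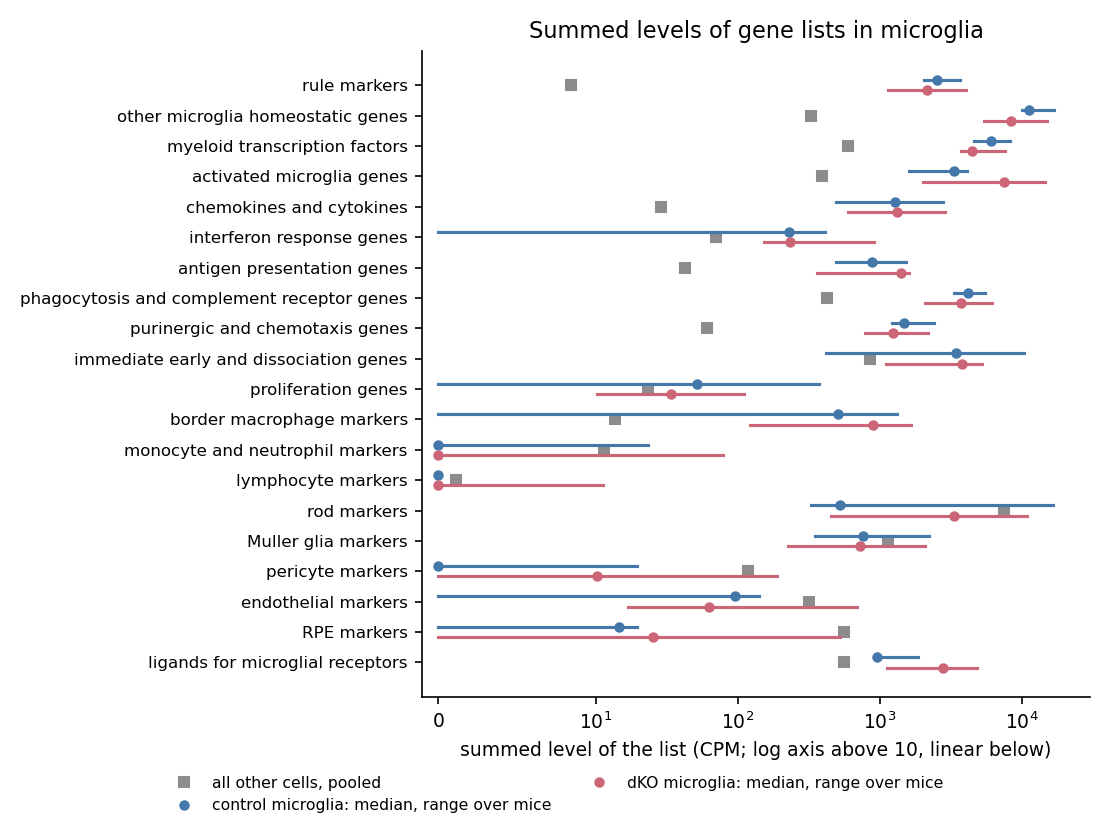
Summed level of each gene list (CPM; the axis is logarithmic above 10) in the microglia of the 4 control and 5 dKO mice, as median and range over mice, with all other cells pooled. Lists of microglia genes lie far above the other cells, monocyte and lymphocyte markers lie at or near 0, and the control and dKO ranges overlap for every list.

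The rule did not separate microglia from the macrophages of the eye's borders and vessels. Of the 80 cells, 20 carried at least 2 of 10 border macrophage markers, and 17 of them carried at least 3. The set rested mostly on Stab1 (20 of 20), Ms4a7 (18) and the mannose receptor gene Mrc1 (16). Clec12a was found in 9 of the 20, F13a1 and Pf4 in 6 each, Cd163 and Lyve1 in 4 each, Cbr2 in 2 and Cd209f in 1. A further 31 cells carried exactly 1 marker, which was Stab1 in 28 cells and Ms4a7 in 3. The 20 cells met the rule with a median of 3 of its markers against 5 in the other 60 cells, at like depth (7201 and 7481.5 UMIs). For these cells the name microglia rests on Cx3cr1 (19 of 20), C1qa (18) and C1qb (17), genes that other macrophages use too, and in part on P2ry12 (13 of 20, against 57 of the 60), whereas Tmem119 was found in 3 of the 20 and in 47 of the 60. Siglech was found in 4 of the 20 and in 57 of the 60, Sall1 in 2 and 47, and Selplg, the ligand of P-selectin, in 6 and 52.

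Genes outside the list used to define the 20 cells differed as well. The lipoprotein gene Apoe was found in all 20 (3665 CPM) and in 15 of the 60 (314 CPM). Lyz2, the macrophage lysozyme, was found in 19 (1088 CPM) and 14 (73.9 CPM). The MHC class II chain gene Cd74 was found in 9 (1088 CPM) and 5 (17.1 CPM), and H2-Eb1 in 7 and in none of the 60. The phagocytic receptor Axl was found in 17 and 16, and the interferon-inducible Ifi204 in 16 and 6. Gpnmb, a glycoprotein of phagocytic macrophages, was found in 6 and 3.

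Seen by Apoe alone, the cells fell into a group without it and a group rich in it, a description whose limit was chosen after the values were seen. Apoe had at least 5 UMIs in 26 cells, 1 to 4 in 9 cells and 0 in 45. All 20 cells with border macrophage markers were among the 26, and 18 of the 26 had no Siglech UMI. Of the 54 other cells, 53 had Siglech. The 26 cells made up 6 of 33 microglia in control mice (18.2%, exact 95% interval 6.98 to 35.5) and 20 of 47 in dKO mice (42.6%, 28.3 to 57.8). Per mouse they were 3 of 7, 2 of 16, 1 of 8 and 0 of 2 in control mice 1 to 4, and 4 of 9, 5 of 13, 3 of 7, 6 of 12 and 2 of 6 in dKO mice 5 to 9. Control mouse 1 lay within the dKO range and the other 3 control mice lay below it. The intervals treat cells as independent and cover counting error only, so the difference between the groups was not tested.

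**Figure D2:**
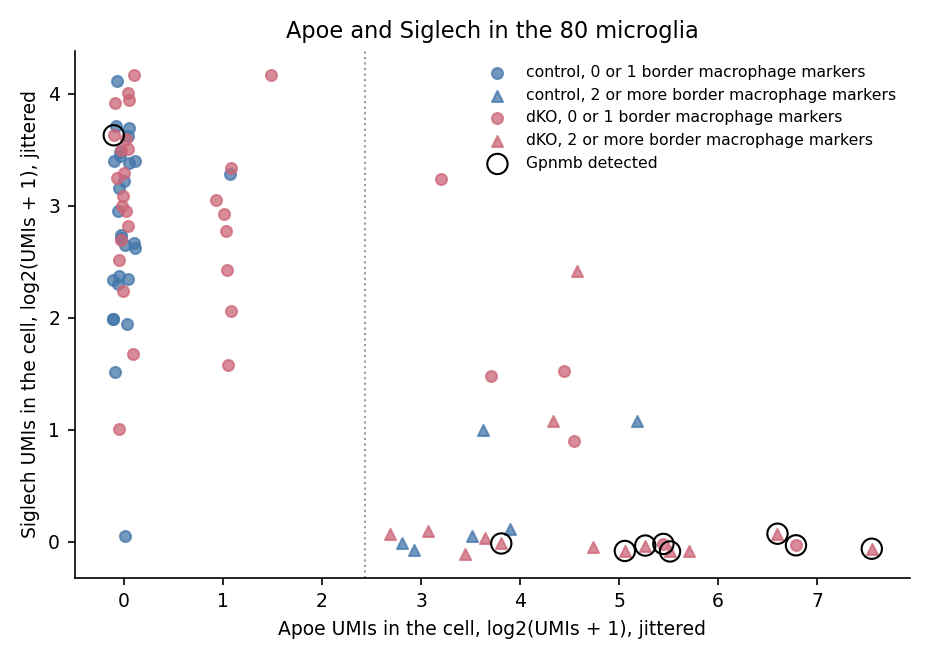
Apoe against Siglech UMIs in each of the 80 microglia, on a log2(UMIs + 1) scale with small random shifts. The dotted line marks 5 Apoe UMIs; the 20 cells with 2 or more border macrophage markers (triangles) lie to its right, and 8 of the 9 cells with Gpnmb (circled, all dKO) do too.

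The control mice gave 7, 16, 8 and 2 microglia, and the dKO mice gave 9, 13, 7, 12 and 6. As a share of all cells these were 0.17, 0.414, 0.247 and 0.0738% in control mice 1 to 4, and 0.556, 0.314, 0.149, 0.375 and 0.172% in dKO mice 5 to 9. The groups overlapped, with the lowest share in control mouse 4 and the highest in dKO mouse 5, both rod-rich libraries. Control mice averaged 0.226% ± 0.144 (SD, n = 4), whereas dKO mice averaged 0.313% ± 0.165 (SD, n = 5), a difference of 0.0870 points (two-sided exact permutation test over mice, p = 0.429; the smallest p this design allows is 0.00794). Shares of cells depend on which other cells were recovered. Among cells that were not rods the shares were 0.380% ± 0.158 and 0.631% ± 0.534 (p = 0.524 by the same exact test), and dKO mouse 5 stood at 1.57%. Without the 3 mice with Y-linked RNA the means were 0.277 and 0.287% (n = 3 and 3, exact p = 0.90, smallest possible 0.10). A difference in microglia number was thus not detectable, with 2 to 16 cells per mouse.

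**Figure D3:**
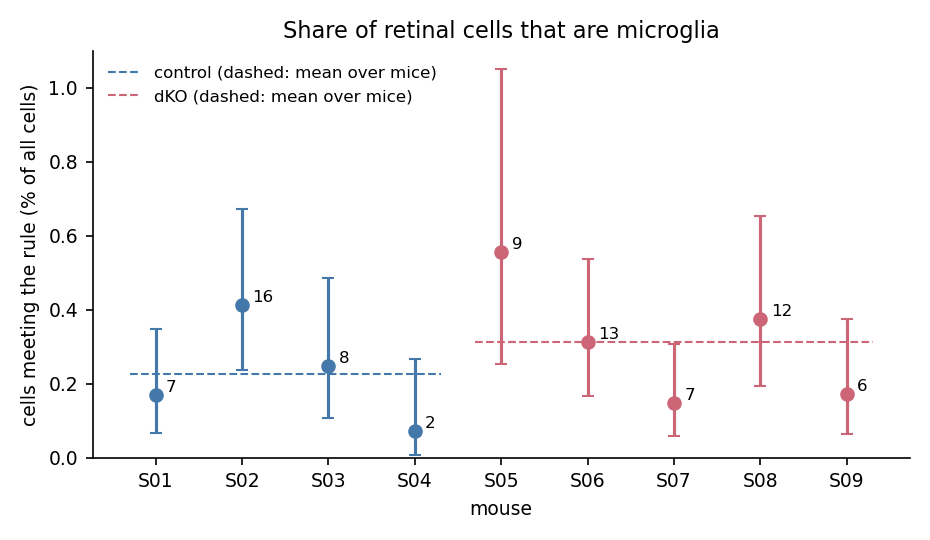
Microglia as a percentage of all cells in each mouse, with exact 95% binomial intervals and the number of microglia beside each point; dashed lines are the group means (0.226% and 0.313%). The ranges of the 2 groups overlap.

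The counts of the microglia were summed per mouse and tested with edgeR over all genes. Control mouse 4, with 2 microglia, was left out of this fit, which held 3 control and 5 dKO mice with 45164 to 216473 UMIs each. Of 2514 genes tested, 0 (0%) passed an adjusted p of 0.05, and limma-voom also called 0, whereas DESeq2 called 6, all higher in dKO, among them the photoreceptor genes Pde6b, Sag and Rp1. At an unadjusted p under 0.05, 138 genes (5.49%) were higher and 59 (2.35%) lower, and in 49 (1.95%) in each direction the groups did not overlap. The lowest adjusted p by edgeR's quasi-likelihood test was 0.523. With a median standard error of 0.45 on the log2 scale, small changes could not be resolved at this depth.

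No change in the homeostatic program was detectable against this error. The rule's own markers, which chose the cells and are given without a test, overlapped between the groups: Cx3cr1 stood at 1050, 1476, 932 and 907 CPM in control mice 1 to 4 and at 513, 698, 621, 1043 and 1860 CPM in dKO mice 5 to 9. Of 15 other homeostatic genes tested, none passed, 3 were nominally higher and 12 lower in dKO, and their median log2 fold change was -0.19 against 0.004 over all genes. Without the mice with Y-linked RNA that median was 0.03, with 8 higher and 7 lower. Among these 15, Tgfbr1, the receptor for the TGF-β signal that maintains microglial identity, was the only gene with an unadjusted p under 0.05. Its levels were 2118, 3558 and 2412 CPM in the fitted control mice and 942, 1384, 1090, 1822 and 2369 CPM in the dKO mice. The log2 fold change was -0.82 ± 0.32 (SE; adjusted p = 0.549 by edgeR), and the groups overlapped. Of 9 transcription factors tested, none passed and their median was -0.28.

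Genes of activated and phagocytic microglia had a list median above that of all genes. Of 22 genes on that list, 12 were tested, none passed, 11 had higher and 1 lower levels in dKO, and the median log2 fold change was 0.84 against 0.004 over all genes. At least Gpnmb and Cd63 passed the filter on low counts only through the dKO mice, which favoured a higher direction for them. Gpnmb had 0 UMIs in control mice. Cd63 stood at 0 to 35.0 CPM in control mice and at a median of 111 CPM in dKO mice. The count of 11 and the median are thus a description. The 3 genes with an unadjusted p under 0.05 were Lyz2, Gpnmb and Apoe. All 22 genes of the list had UMIs in the microglia, but unevenly: Ctsb was found in 78 of the 80 cells, Cd9 in 60, Axl in 33, Clec7a in 29 and Cd63 in 25, whereas Itgax was found in 6 and Cst7 in 1. With the 20 border-marker cells left out and the same mice kept, 6 genes of the list could be tested and their median was 0.01, with 3 higher and 3 lower. That median covers fewer genes than the 0.84. Without the mice with Y-linked RNA, 10 genes were tested and the median was 0.80, with 9 higher and 1 lower.

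Apoe (chr7:19430034-19434947, minus strand, GRCm39) stood at 928, 166, 175 and 0 CPM in control mice 1 to 4, and at 439, 865, 3157, 2023 and 1218 CPM in dKO mice 5 to 9. Control mouse 1 lay above dKO mice 5 and 6, so the groups overlapped. The log2 fold change was 1.94 ± 0.74 (SE; adjusted p = 0.523 by edgeR). In all other cells Apoe, which Müller glia also express, stood at 25.5 to 128 CPM in every mouse, and the groups overlapped.

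Lyz2 (chr10:117111557-117118346, minus strand, GRCm39) stood at 175, 117, 69.9 and 0 CPM in control mice and at 189, 447, 377, 578 and 221 CPM in dKO mice. Every dKO mouse was above every control mouse, but the gap between dKO mouse 5 and control mouse 1 was small. The log2 fold change was 1.65 ± 0.46 (SE; adjusted p = 0.523 by edgeR). Without the mice with Y-linked RNA the log2 fold changes were 1.75 for Apoe and 1.87 for Lyz2 (adjusted p = 0.966 for each by edgeR). In summed cells, more cells of a type and more RNA per cell cannot be told apart.

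Apoe and Lyz2 were mostly carried by the border-marker cells described above, which made up 6 of 33 microglia in control and 14 of 47 in dKO mice, so their levels are also given apart, as a description. In the border-marker cells Apoe stood at 2210, 2041 and 2139 CPM in control mice 1 to 3, in 3, 2 and 1 cells, and control mouse 4 had no such cell. In dKO mice 5 to 9 it stood at 2535, 2973, 6869, 4259 and 4569 CPM, in 2 to 4 cells each, all above the control mice. In the 60 cells outside the set, Apoe had 1 UMI in the 27 control cells and 220 UMIs in 14 of the 33 dKO cells. By mouse these were 1, 0, 0 and 0 UMIs in control mice and 23, 26, 102, 67 and 2 UMIs in dKO mice. Of the 6 dKO cells outside the set with at least 5 Apoe UMIs, 4 carried exactly 1 border macrophage marker and 2 carried none. For Lyz2, 20 UMIs lay in control and 170 in dKO border-marker cells, with 8 and 44 UMIs in the cells outside the set, of which 27 were in 1 cell of dKO mouse 7. With the border-marker cells left out and the same mice kept, the adjusted p of Apoe was 0.486 by edgeR, and Lyz2 no longer passed the filter.

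Gpnmb (chr6:49013426-49047863, plus strand, GRCm39) had 0 UMIs in the 33 microglia of the 4 control mice. It had 0, 52, 179, 25 and 12 UMIs in dKO mice 5 to 9, or 0, 290, 1823, 314 and 266 CPM. The pooled dKO level of 433 CPM was 37.5-fold the 11.6 CPM that 3 counts over the control group would give. Without dKO mouse 7 it was 14.8-fold that level. These folds take UMIs as independent counts, whereas single cells held 77, 75 and 49 of the 268 dKO UMIs. They are thus a description and not a lower bound on the difference between the groups. The signal lay in 9 of 47 dKO cells (19.1%, exact 95% interval 9.15 to 33.3) against 0 of 33 control cells, where 3 counts would be a share of 9.09%. The interval treats cells as independent and covers counting error only, not the spread between mice. Rods, which should lack the gene, had a UMI in 1.11% of cells, at a median depth of 4903 UMIs. Of the 9 microglia, 6 had at least 10 UMIs. The 9 cells were 2, 3, 3 and 1 cells of dKO mice 6 to 9. One cell of dKO mouse 6 had 3 Gpnmb UMIs with 53 UMIs of Rpe65, a marker of the RPE. Without this cell the pooled fold was 37.1. The other 8 cells had 12 to 196 Apoe UMIs, no Siglech and at most 1 UMI of the RPE markers.

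In the fit Gpnmb passed the filter on low counts only through the dKO mice. Its adjusted p was 0.523 by edgeR's test. In all other cells Gpnmb stood at 4.15 to 22.4 CPM in every mouse, control mice included. Spp1 (osteopontin), often found with Gpnmb in phagocytes, had 0 UMIs in control microglia and 64 in dKO microglia, of which 57 were in dKO mouse 7. Csf1, a growth factor of macrophages, had 119 of its 194 UMIs in dKO mouse 7 and 39 in dKO mouse 9, in cells that included Gpnmb-positive ones with 98 and 39 UMIs.

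**Figure D4:**
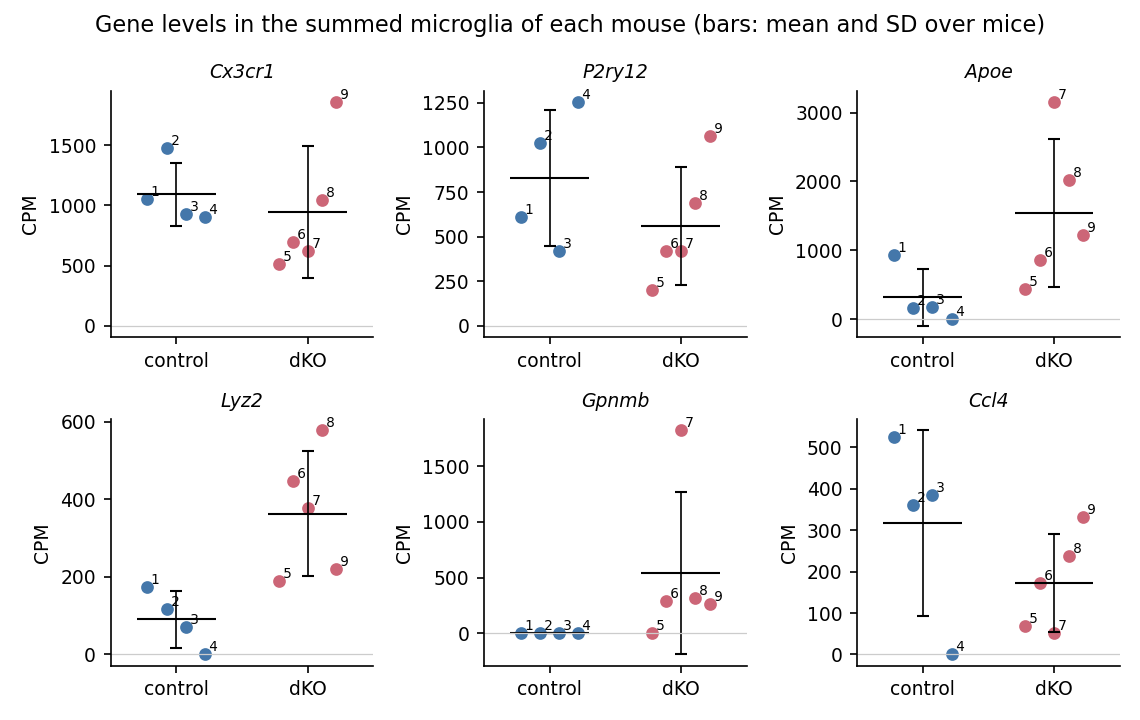
Level (CPM) of 6 genes in the summed microglia of each mouse, numbered 1 to 9, with the mean and SD of each group (4 control, 5 dKO). Cx3cr1 and P2ry12 overlap between the groups, every dKO mouse lies above every control mouse for Lyz2, and Gpnmb is at 0 in control mice 1 to 4 and dKO mouse 5.

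Chemokines and cytokines were next. Of 15 on the list, 5 were tested and none passed. Ccl4, a chemokine that microglia release early, stood at 525, 362, 385 and 0 CPM in control mice and at 69.3, 173, 50.9, 239 and 332 CPM in dKO mice. Over the fitted mice the groups did not overlap, whereas control mouse 4 had no Ccl4 UMI in its 2 cells. The log2 fold change was -1.35 ± 0.51 (SE; adjusted p = 0.523 by edgeR). Immediate early genes, which are known to respond to tissue dissociation, had a median log2 fold change of -0.61, negative for 10 of 10 tested, and none passed the test. That median was -0.25 (2 higher, 8 lower) without the mice with Y-linked RNA and -0.34 (2 higher, 8 lower) without the border-marker cells. Control mouse 1 had the highest summed level of the list, 10293 CPM, whereas the group medians over mice were 3426 CPM in control and 3782 CPM in dKO. The part of dissociation in the Ccl4 levels was not tested. Il1b (interleukin 1β) had UMIs in 1 of 4 control mice, at 35.0 CPM, and in 4 of 5 dKO mice. It passed the filter on low counts only through the dKO mice, which favoured a higher direction. Its log2 fold change was 3.27 ± 1.44 (SE, adjusted p = 0.629 by edgeR).

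Genes of antigen presentation, complement and phagocytic receptors, purinergic receptors and ligands did not pass the test either. The medians were 0.21 for 4 antigen presentation genes tested, -0.19 for 10 phagocytosis and complement receptor genes and -0.31 for 6 purinergic and chemotaxis genes, against 0.004 over all genes. Without the mice with Y-linked RNA the last 2 medians were 0.02 (7 higher, 3 lower) and 0.0003 (3 higher, 2 lower). Mertk, the receptor by which phagocytes take up dying cells and shed outer segments, was among the more abundant microglial genes at 1425 CPM and had a log2 fold change of -0.47 ± 0.47 (SE; adjusted p = 0.899 by edgeR). Of the ligands for microglial receptors, Cx3cl1 and Il34 were low in microglia, with 9 and 3 UMIs, whereas the microglia themselves expressed Tgfb1 (48 of 80 cells).

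The 10 genes with the lowest p among those higher in dKO were Ankrd33b, Ntng2, Peak1, Optn, Esrrb, Pitpnm3, Zdhhc2, Add3, Eepd1 and Dlg1, with log2 fold changes of 1.22 to 5.38 for all but Pitpnm3. Pitpnm3 had no UMI in the fitted control mice and passed the filter only through the dKO mice, so its fitted fold is not given. Ankrd33b, Ntng2, Peak1, Optn, Esrrb, Zdhhc2 and Eepd1 also reached the filter's level only in dKO mice. The filter thus favoured a higher direction for them, and their folds are a description. In rods these genes stood at 161 CPM (Eepd1) to 1007 CPM (Esrrb), with Ankrd33b at 737 CPM and Zdhhc2 at 689 CPM, except Peak1 at 43.5 CPM. All 10 were higher in the pooled other cells than in the mean of the fitted control microglia. This held for 0 of the 10 genes with the lowest p among those lower in dKO. Both lists were chosen by direction, so this is a description. Esrrb, a nuclear receptor of rods, stood at 1007 CPM in rods and at 0, 0 and 11.7 CPM in the fitted control microglia, against 328, 134, 458, 50.3 and 22.1 CPM in dKO microglia. Rod markers were also higher in dKO in the fit. Of 10, 6 were tested, all 6 were higher with an unadjusted p under 0.05 and none passed. Their median log2 fold change was 3.51. Rod markers were low in the fitted control mice, so the filter on low counts favoured a higher direction for most of those tested. Their count and median are thus a description. Pde6b and Sag, which DESeq2 called under the same filter, are on this list. Without the mice with Y-linked RNA only 2 could be tested, with 2 higher and a median of 1.95. Rod genes made up 0.0326 to 0.0613% of microglial UMIs in the fitted control mice, 1.64% in control mouse 4, and 0.845, 0.333, 1.09, 0.0452 and 0.0509% in dKO mice 5 to 9. The high values were those of the 3 rod-rich libraries and dKO mouse 6, and control mouse 4, the highest, was not in the fit. The part of rod RNA from other cells in the genes above was not tested. Summed over the list, rod markers stood at 326 to 16404 CPM in control and 452 to 10857 CPM in dKO mice.

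The genes with the lowest p among those lower in dKO were Hpgd, Cyrib, Arsb, Scaper, 0610040J01Rik, Rbfox1, Cd81, Lonp2, Rsrc1 and Ttc28. Hpgd, which degrades prostaglandins, stood at 455, 323 and 361 CPM in the fitted control mice and at 69.3, 27.9, 91.7, 214 and 66.4 CPM in dKO mice, so the groups did not overlap. Its log2 fold change was -2.02 ± 0.50 (SE; adjusted p = 0.523 by edgeR). Cyrib, a regulator of Rac1 and the actin cytoskeleton, was found in 75 cells; it stood at 1400, 1339 and 1480 CPM in control and at 619, 497, 540, 792 and 841 CPM in dKO mice. Cyrib, like Hpgd, was named for its low p, so the gap between the groups is a description and not support for a change. Its log2 fold change was -1.08 ± 0.27 (SE, adjusted p = 0.523 by edgeR). Rbfox1, a neuronal splicing factor, had 410 of its 543 UMIs in 1 cell of control mouse 3, and without that mouse its log2 fold change was -0.15.

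**Figure D5:**
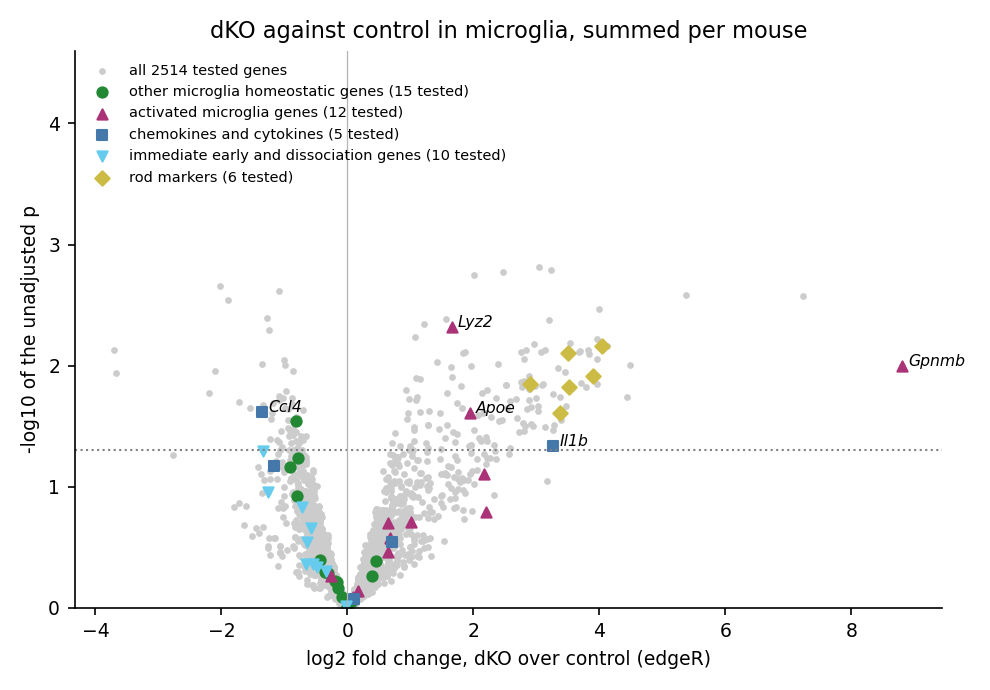
log2 fold change (dKO over control, edgeR) against -log10 of the unadjusted p for the 2514 genes tested in microglia, with 5 gene lists in colour; the dotted line marks an unadjusted p of 0.05. Rod markers lie to the right, the activated genes Lyz2, Apoe and Gpnmb lie above the line on the higher side, and no gene passed the adjusted threshold.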

How the data were processed

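Retinal cells of 9 mice were profiled by split-pool single-cell RNA sequencing. The authors mapped reads to GRCm39 with the Parse pipeline, removed cells with fewer than 200 genes and genes found in fewer than 3 cells, and deposited raw UMI counts per gene and cell (37725 genes, 31089 cells) with the mouse of each cell; no cell types were used from the deposited files. Per the labels, R 4.2.2 and Seurat 4.3.0 were used. How doublets were treated is not given in the sources used here, and none were called here; the effect of leaving out very deep cells is given at the end.

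Microglia were chosen by the marker rule, and the markers, gene lists and tests were chosen with earlier results of these data known. Levels are counts per 1000000 UMIs (CPM) of the summed cells of a mouse. Shares were compared over mice with a two-sided exact permutation test, and intervals are exact Clopper-Pearson intervals of 95%. For dKO against control, counts were summed per mouse and tested with edgeR 4.0.16 (quasi-likelihood, TMM, filterByExpr, Benjamini-Hochberg over all genes). Because only 1 control mouse had at least 10 microglia, the minimum was set to 5. DESeq2 1.42.0 and limma-voom (limma 3.58.1) were alternatives. Named genes were the list genes, the 25 with the highest median ratio to other cells, and the 10 with the lowest p in each direction. The cell counts of Spp1, Csf1, Gpnmb and Apoe at a UMI limit, and the DESeq2 calls, were picked out after their values were seen. Some genes are not reported here. The labels give each mouse as a separate sample; with 2 to 16 microglia per mouse, counting error is a large part of the spread. Positions are from GENCODE M39 (GRCm39) and promoter and miRNA sequences from RefSeq (GRCm38.p6).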

Additional observations from a re-analysis of the deposited data

Results flagged for a closer look

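Within groups of 4 or 5 mice, 44 groups of values were examined and 5 held a mouse far from the others, where chance flags about 1 group in 20. In control mice, rod genes made up 1.64% of microglial UMIs in control mouse 4, against 0.0613% in the next mouse; this mouse had 2 microglia. Il1b stood at 35.0 CPM in control mouse 3 and at 0 in the other control mice. In dKO mice, the share of microglia among cells that were not rods was 1.57% in dKO mouse 5, against 0.474% in the next mouse. Gpnmb stood at 1823 CPM in the microglia of dKO mouse 7, against 314 CPM in the next mouse, and Arsb at 528 CPM in dKO mouse 8, against 224 CPM in the next mouse.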

How the results depend on the processing

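The difference in the share of microglia kept its direction and stayed above p = 0.05 in all 17 alternatives (0.00964 to 0.252 points, exact p 0.179 to 0.905; 0.0264 to 0.15 points with each mouse left out). The count of genes called in dKO against control was 0 in 19 of 22 alternative fits, among them each of the 8 fits without 1 mouse. It was 6 with DESeq2, 247 of 17019 (189 higher, 58 lower) with no filter on low counts, of which 117 were genes that the reported fit tested and did not call, and 1 without the mice with Y-linked RNA, an alternative added after the data were seen. That gene was Gpnmb, which passes the filter only through the dKO mice, and this fit also leaves out dKO mouse 5, the dKO mouse with 0 Gpnmb UMIs. The number of genes at least 8-fold higher in microglia was 310, and 521 with a pseudocount of 1 CPM; without 1 mouse it was 296 to 336. For 28 named genes, 505 values were recomputed: 488 kept direction and side of the threshold, 15 passed it and 2 reversed. The reversals were Csf1 with limma-voom (-0.96) and with border-marker cells left out (-0.69), against 2.20 as reported; the cause was not tested. Leaving out cells over 3 times the median UMIs, leaving out cells with RPE markers and the border-marker cells with the same mice kept, all added after the data were seen, each gave 0 calls. A minimum of 5 microglia per mouse equals the reported fit, so it gave no further value. No paired analysis was possible because control and dKO mice have no replicate number in common. The depth, 80 cells in all, limits every comparison.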
